A study of Mus musculus with 4 samples.

Results

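Kupffer cells are the resident macrophages of the liver and line its sinusoids, where they take up bacteria, dying cells and old red blood cells from the portal blood. The expression of 10 of their identity genes was examined in primary mouse hepatocyte cultures, of 24787 genes with a symbol on the array. The genes were chosen by name. Of these, 7 mark resident Kupffer cells (Clec4f, Vsig4, Timd4, Cd5l, Marco, Spic and Cd163) and 3 are expressed by macrophages in general (Cd68, Lyz2 and Csf1r). All probes whose gene name equals one of these symbols were taken, which gave 15 probes.

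Hepatocytes were isolated from mice of the C57BL/6 strain, plated, and harvested 24 h after seeding. Control and Drp1LiKO cells were either untreated or given 200 μM palmitate, and each of these 4 groups has 1 array. Drp1LiKO mice carry a floxed Dnm1l gene, which encodes the mitochondrial fission protein Drp1, and Cre under the albumin promoter. The methods name Drp1 flox/flox littermates as controls. The albumin promoter is active in hepatocytes, and macrophages are not its target. Palmitate is a saturated fatty acid. The labels state neither its exposure time nor whether the 4 cultures came from separate animals, and the ages of the mice were not given for these cultures. According to its label, the untreated control array shares its raw data with a sample outside these 4.

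Levels are log2 intensities relative to the 75th percentile of the array, so that 0 is the intensity that 75% of spots do not exceed. A probe was counted as measured where the scanner software called it well above background. Between 44.7% and 51.1% of the 56605 probes were measured on an array. No group has a replicate, so the spread between cultures is unknown and no p-value is given for a difference between a pair of arrays. An error after ± is the scanner software's own estimate for the spots (1 SD), which covers spot noise within arrays only. A gene was counted as different between a pair of arrays at 2-fold or more (1 log2 unit) with its probe measured on at least 1 of them. Where only 1 of them measured it, the fold is a lower bound. It is taken against the dimmest signal measured on the other array, or against the gene's own reading there if that is brighter. Such a bound holds only under the scanner software's background subtraction and makes no allowance for the scanner error. Untreated and palmitate arrays lie on separate slides according to the scanner codes, and the effects of palmitate and of slide cannot be told apart. Both genotypes are present on each slide. Dnm1l checked the labels. It read 2.42 in control and 1.07 in Drp1LiKO, and 2.43 and 1.01 with palmitate, lower in Drp1LiKO by 2.55-fold and 2.68-fold.

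The resident genes have known roles in clearance. Clec4f is a C-type lectin that binds galactose-bearing glycans, and Vsig4 is a receptor for complement fragments that captures coated bacteria. Timd4 binds phosphatidylserine on dying cells, Marco is a scavenger receptor for bacteria and particles, and Cd163 takes up haemoglobin bound to haptoglobin. Cd5l is a secreted protein that protects macrophages from apoptosis. Spic is a transcription factor that haem induces in macrophages of the spleen and liver. Among the general genes, Cd68 encodes a lysosomal membrane glycoprotein and Lyz2 encodes lysozyme. Csf1r is the receptor for Csf1 and Il34, on which macrophages depend for survival.

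The array reads each gene through oligonucleotides of 60 bases. The following probes are as listed in the scanner tables, with mm9 coordinates. Those of Clec4f and Vsig4 are shown because these genes were measured in Drp1LiKO only. For Cd68 and Lyz2, a further probe is shown, against which the difference of the gene was compared. The levels given for Cd68 and Lyz2 come from other, brighter probes.
Clec4f probe, chr6:83595281-83595339, minus strand: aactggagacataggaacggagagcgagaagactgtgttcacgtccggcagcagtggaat
Vsig4 probe, chrX:93443157-93443216, minus strand: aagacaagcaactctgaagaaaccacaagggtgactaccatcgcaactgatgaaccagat
Cd68 probe, chr11:69478314-69478373, minus strand: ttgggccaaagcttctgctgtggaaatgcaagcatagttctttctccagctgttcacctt
Lyz2 probe, chr10:116719175-116719234, minus strand: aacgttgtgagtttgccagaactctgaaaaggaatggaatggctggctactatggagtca

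Marco and Spic were higher with palmitate while Cd5l, Clec4f and Vsig4 were lower, and their promoters are shown for that reason. Each is the 250 bases before the RefSeq start site (GRCm38.p6), read 5′ to 3′ on the strand of the gene, with motif matches in capitals. The motifs searched on both strands were the core of the PU.1 site (GAGGAA), a core of the MAF site (TGCTGA), the AP-1 site (TGANTCA) and the antioxidant response element (TGACNNNGC).
Marco promoter, chr1:120505025-120505274, minus strand: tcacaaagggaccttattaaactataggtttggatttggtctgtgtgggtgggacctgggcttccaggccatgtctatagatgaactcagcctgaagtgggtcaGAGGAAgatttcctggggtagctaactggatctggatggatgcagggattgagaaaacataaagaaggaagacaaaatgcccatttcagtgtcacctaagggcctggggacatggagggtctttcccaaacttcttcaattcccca
Spic promoter, chr10:88683024-88683273, minus strand: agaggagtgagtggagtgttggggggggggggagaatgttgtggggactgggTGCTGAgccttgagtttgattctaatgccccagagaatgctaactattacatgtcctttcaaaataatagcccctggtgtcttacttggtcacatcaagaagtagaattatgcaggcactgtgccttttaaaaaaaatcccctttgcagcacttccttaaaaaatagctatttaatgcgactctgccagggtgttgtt
Cd5l promoter, chr3:87357631-87357880, plus strand: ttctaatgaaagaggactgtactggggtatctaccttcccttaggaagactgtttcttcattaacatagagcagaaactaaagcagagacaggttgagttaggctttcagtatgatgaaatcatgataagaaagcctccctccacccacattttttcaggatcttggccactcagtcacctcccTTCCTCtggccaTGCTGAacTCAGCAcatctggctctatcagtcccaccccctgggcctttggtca
Clec4f promoter, chr6:83656117-83656366, minus strand: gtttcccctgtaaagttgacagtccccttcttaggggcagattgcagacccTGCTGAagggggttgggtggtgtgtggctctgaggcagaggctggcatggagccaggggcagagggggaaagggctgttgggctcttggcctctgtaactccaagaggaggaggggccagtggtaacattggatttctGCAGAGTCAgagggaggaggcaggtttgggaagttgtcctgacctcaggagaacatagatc
Vsig4 promoter, chrX:96293439-96293688, minus strand: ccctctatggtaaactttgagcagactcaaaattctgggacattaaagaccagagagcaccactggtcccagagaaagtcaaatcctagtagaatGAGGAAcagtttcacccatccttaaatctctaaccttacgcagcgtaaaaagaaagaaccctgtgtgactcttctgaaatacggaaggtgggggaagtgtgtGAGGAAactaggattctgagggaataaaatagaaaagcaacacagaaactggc

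Of the 10 genes, 9 had a promoter entry. The PU.1 core was found in 4 of the 9 (Marco, Cd5l, Vsig4 and Cd68), against 23.3% of 32851 promoters. The MAF core was found in 5 of the 9 (Cd5l, Clec4f, Spic, Lyz2 and Timd4), against 16.1%. The AP-1 site was found in Cd68 alone among the 9, against 6.75%, and the antioxidant response element in Clec4f alone, against 10.2%. No match of one motif overlapped one of another. These are matches of letters only. Of the higher pair with palmitate, Marco held the PU.1 core and Spic the MAF core. Of the lower genes, Cd5l held both, Vsig4 the PU.1 core and Clec4f the MAF core. Both motifs thus occurred among the higher and the lower genes.

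Detection differed between the genotypes. Of the 10 genes, 5 were measured in untreated control, 8 in untreated Drp1LiKO, 5 in control with palmitate and 7 in Drp1LiKO with palmitate. Cd5l, Marco, Cd68, Lyz2 and Csf1r were measured on all 4 arrays. Clec4f and Spic were measured in Drp1LiKO hepatocytes only, on both of those arrays, and Vsig4 on the untreated Drp1LiKO array only. Timd4 and Cd163 were measured on no array, and Cd163 by neither of its 2 probes. Their levels lay between −7.01 and −4.49 for Timd4 and between −7.22 and −5.75 for the Cd163 probes.

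**Figure D1:**
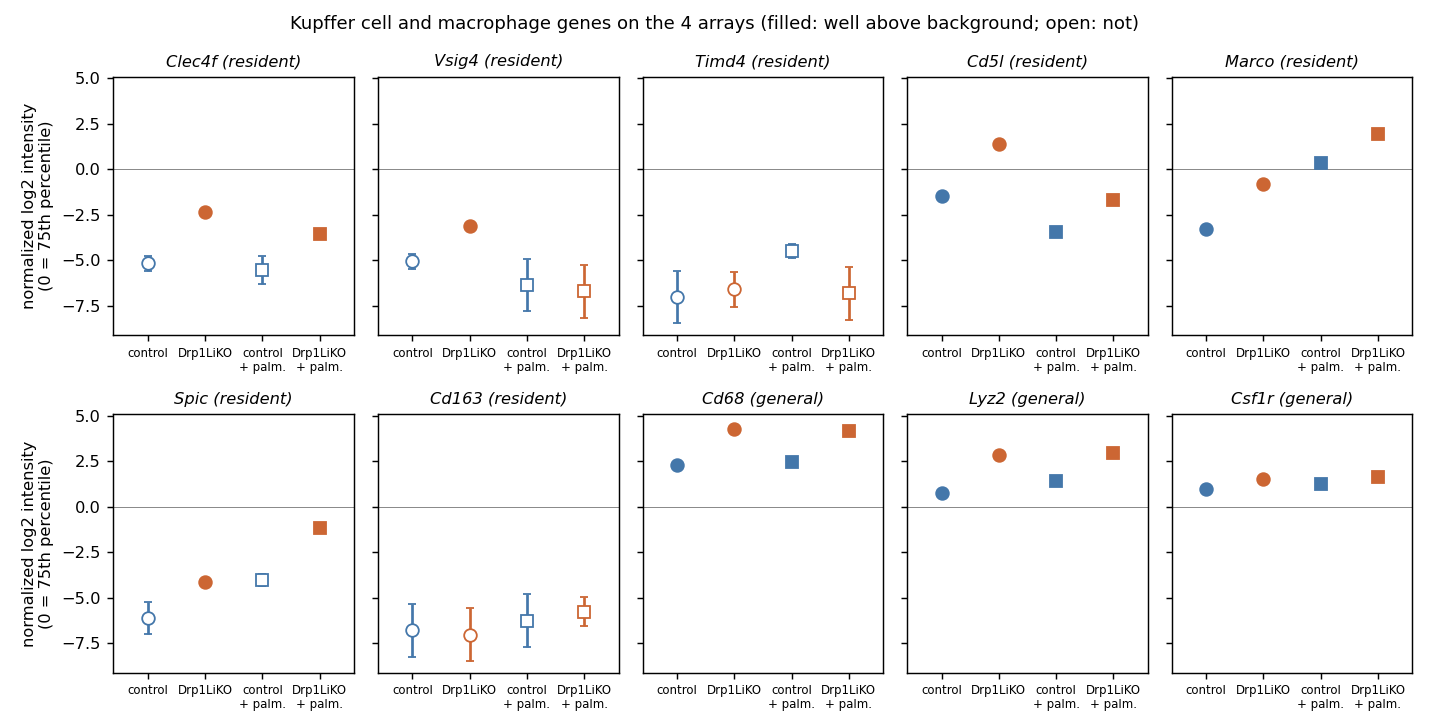
Normalized log2 intensity of the probe that stands for each gene on the 4 arrays, 1 point an array, where 0 marks that array's 75th percentile; filled points are well above background, open points are not, and bars are the scanner software's error. Cd68 lay at 4.28 and 4.14 in Drp1LiKO against 2.27 and 2.44 in control, and Timd4 and Cd163 had open points only.

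The first comparison asks how Drp1LiKO hepatocyte cultures differ from control cultures without palmitate. Of the 8 measured genes, 7 were at least 2-fold higher in Drp1LiKO and 0 were lower, whereas 8.06% of 15189 genes were higher and 5.57% were lower. Csf1r was the exception. Clec4f, Vsig4 and Spic entered this count through the Drp1LiKO array alone, so they could hardly have counted as lower. Of the 5 genes measured on both arrays, 4 were higher and 0 lower, against 4.45% and 3.66% of 13863 genes. Among genes measured on both arrays, the median difference was 2.64 for the 2 resident genes and 2.01 for the 3 general genes, against −0.02 over all genes tested. These are bulk cultures, in which more cells of a type and more RNA per cell cannot be told apart.

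Among the resident genes, Cd5l was measured at −1.45 in control and 1.38 in Drp1LiKO. It was therefore 7.14-fold higher (log2 difference 2.84 ± 0.21), rank 48 among the 13863 genes measured on both arrays, rank 1 being the largest increase. Marco was measured at −3.26 and −0.82 and was 5.41-fold higher (2.44 ± 0.24, rank 92). Both Cd5l and Marco were thus brighter on the Drp1LiKO array by far more than the scanner error. Clec4f read −5.14 in control, not well above background, and −2.35 in Drp1LiKO, which was at least 5.21-fold higher. Vsig4 read −5.05, again not well above background, and −3.11, at least 3.08-fold higher. Both surface receptors were thus dark on the control array and measured on the Drp1LiKO array. Spic read −6.11, not well above background, and −4.12. Its lower bound was 1.53-fold, so the count of Spic past 2-fold rests on the unmeasured control level.

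Among the general genes, Cd68 was measured at 2.27 in control and 4.28 in Drp1LiKO, 4.03-fold higher (2.01 ± 0.20, rank 165). Lyz2 was measured at 0.77 and 2.87 and was 4.27-fold higher (2.09 ± 0.20, rank 147). Csf1r was measured at 0.96 and 1.55 and was 1.51-fold higher (0.59 ± 0.20, rank 1355). Relative to Cd68, the difference was larger by 0.83 for Cd5l, 0.43 for Marco and 0.08 for Lyz2. For Csf1r, the growth factor receptor, it was smaller, at −1.42. The other probes of Cd68 differed by 2.12 and 2.11 and the second probe of Lyz2 by 2.37, whereas the second probe of Csf1r differed by 0.08. The 3 probes of Cd68 thus gave the same difference within the scanner error, and the probes of Csf1r did not. Lyz1, a near-identical paralog whose transcripts the Lyz2 probes may also bind, was higher by 2.25.

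With another background correction, normexp with an offset of 50, Spic and Vsig4 fell short of 2-fold at 0.29 and 0.57. Clec4f kept 1.03, Marco 1.56 and Cd5l 2.44, and 5 of the 8 genes were past 2-fold.

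The next comparison asks for the same difference under palmitate, on arrays that the first comparison did not use. Since the cultures may come from the same animals as in the first comparison, it cannot be counted as an independent repeat. Of the 7 measured genes, 6 were at least 2-fold higher in Drp1LiKO and 0 were lower, against 6.89% and 4.28% of 14666 genes. Of the 5 measured on both arrays, 4 were higher and 0 lower, against 3.20% and 2.79% of 13357 genes. Csf1r was again the exception, and Vsig4 could not be compared because neither array measured it. Clec4f and Spic again entered the first count through the Drp1LiKO array alone. Among genes measured on both arrays, the median was 1.68 over the 2 resident genes and 1.53 over the 3 general genes, against −0.03 over all genes tested.

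Cd5l was measured at −3.44 in control with palmitate and −1.69 in Drp1LiKO with palmitate. It was 3.36-fold higher (1.75 ± 0.30, rank 152 of 13357). Marco was measured at 0.33 and 1.95, 3.06-fold higher (1.61 ± 0.20, rank 185). The same pair of resident genes was thus again brighter in Drp1LiKO. Spic read −4.00, not well above background, and −1.17, at least 7.12-fold higher. Clec4f read −5.54, not well above background, and −3.54, with a lower bound of 1.54-fold. Of the 24 spots around that of Clec4f, 3 were measured on the control palmitate array alone, where the mean over all spots was 0.129.

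Cd68 was measured at 2.44 in control with palmitate and 4.14 in Drp1LiKO with palmitate, 3.24-fold higher (1.69 ± 0.20, rank 165). Lyz2 was measured at 1.44 and 2.97, 2.88-fold higher (1.53 ± 0.20, rank 205). Csf1r was measured at 1.23 and 1.65, 1.34-fold higher (0.42 ± 0.20, rank 1535). Cd68 and Lyz2 differed by genotype to the same extent within the scanner error in both comparisons, and Csf1r was again the least different. The other Cd68 probes differed by 1.84 and 2.06, the second Lyz2 probe by 2.03 and the second Csf1r probe by −0.06. With normexp, Clec4f and Cd5l fell short of 2-fold at 0.42 and 0.87, Spic was at 1.45, and 4 of the 7 genes were past 2-fold.

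Over all 4 arrays, genotype and palmitate were fitted as additive terms with limma across 15647 genes, which leaves 1 residual degree of freedom that also holds their interaction. The untreated and the palmitate array of a genotype are not replicates and may share an animal. The SE and p-values thus rest on departures from additivity and do not measure the spread between cultures or mice. Effects are given for the 5 identity genes measured on all arrays, since Clec4f, Spic and Vsig4 had no measured control level. The genotype effect was 2.29 ± 0.37 (SE) for Cd5l, 2.02 ± 0.28 for Marco, 1.85 ± 0.12 for Cd68, 1.81 ± 0.20 for Lyz2 and 0.51 ± 0.09 for Csf1r. None passed an adjusted p of 0.05. The adjusted p in limma ranged from 0.0848 for Cd68 to 0.122 for Csf1r, and 0 of all genes passed (0.00%). At an unadjusted p under 0.05, 4683 genes (29.9%) passed, these 5 among them. The outcome depended on the settings of the limma fit. With normexp, 2045 genes (13.1%) were called, Marco, Cd68 and Lyz2 among them. With only the 13244 genes measured on all arrays, 2872 (21.7%) were called, among them all 5 identity genes tested. With a prior variance that follows intensity, 4558 (29.1%) were called, again with these 5 among them.

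**Figure D2:**
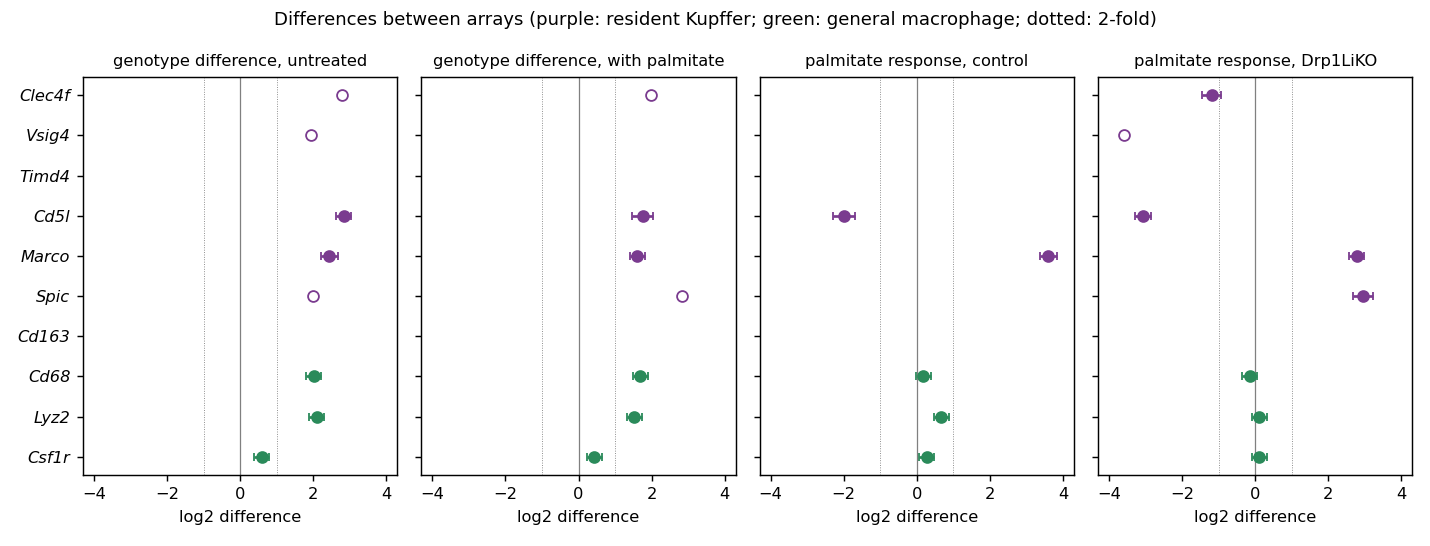
Log2 difference between pairs of arrays for each gene; the dotted lines mark 2-fold, filled points were measured on both arrays, with the scanner software's error as bars, and open points on 1 array only. In both genotype panels every plotted gene except Csf1r lies beyond 2-fold to the right; in the palmitate panels Marco lies at 3.59 and 2.77 and Cd5l at −1.99 and −3.07.

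The palmitate comparisons ask how each genotype responds to the fatty acid. They share their arrays with the genotype comparisons, and the slide changes with palmitate. In control cultures, Marco was higher and Cd5l lower, and none of Cd68, Lyz2 and Csf1r was past 2-fold. Of the 5 measured genes, 1 was thus higher and 1 lower by at least 2-fold, against 2.25% and 2.40% of 14561 genes. All 5 were measured on both arrays, where the shares over 13405 genes were 0.716% and 0.231%. In Drp1LiKO cultures, 2 of the 8 measured genes were higher (Marco and Spic) and 3 were lower (Cd5l, Clec4f and Vsig4), against 3.26% and 2.59% of 15107 genes. Of the 7 measured on both arrays, 2 were higher and 2 lower, against 1.39% and 0.650% of 14002 genes. All genes together had a median difference of −0.00 (control) and −0.01 (Drp1LiKO).

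Marco went from −3.26 to 0.33 with palmitate in control, 12.1-fold higher (3.59 ± 0.24), rank 2 among the increases of 13405 genes measured on both arrays. In Drp1LiKO it went from −0.82 to 1.95, 6.82-fold higher (2.77 ± 0.20), rank 11 of 14002. Both genotypes thus had more of the transcript of this scavenger receptor on the palmitate array. Spic went from −4.12 to −1.17 in Drp1LiKO, 7.75-fold higher (2.95 ± 0.28, rank 10), and was measured on neither control array, where it read −6.11 and −4.00.

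Cd5l moved the other way. In control it went from −1.45 to −3.44, 3.96-fold lower (−1.99 ± 0.29), rank 5 among the decreases. In Drp1LiKO it went from 1.38 to −1.69, 8.42-fold lower (−3.07 ± 0.21), rank 2 among the decreases. The level of Cd5l in Drp1LiKO with palmitate was thus near that of the untreated control. Clec4f went from −2.35 to −3.54 in Drp1LiKO, 2.28-fold lower (−1.19 ± 0.26, rank 57). Vsig4 went from −3.11 to −6.69, which was not well above background, at least 2.65-fold lower. Both receptors were thus lower with palmitate in the only genotype in which they had been measured.

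The general macrophage genes differed by less between the palmitate and untreated arrays. Cd68 differed by 0.17 ± 0.20 in control and −0.15 ± 0.20 in Drp1LiKO, Lyz2 by 0.67 ± 0.20 and 0.11 ± 0.20, and Csf1r by 0.27 ± 0.20 and 0.11 ± 0.20. Their medians were 0.27 and 0.11. For Cd68, the palmitate and untreated arrays of a genotype thus lay within the scanner error of each other, and both Drp1LiKO arrays lay above both control arrays. The resident genes had no shared direction, and those measured on both arrays lay on either side of 0, with 1 of 2 higher in control and 2 of 4 in Drp1LiKO. Relative to Cd68 on the same arrays, the palmitate difference of Marco was 3.42 in control and 2.92 in Drp1LiKO, that of Cd5l −2.16 and −2.93, and that of Spic in Drp1LiKO 3.10. The change of these genes was thus unequal to that of the general marker within the same arrays.

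With normexp the palmitate difference in Drp1LiKO was −0.50 for Clec4f and −0.84 for Vsig4, both short of 2-fold. Marco, Spic and Cd5l stayed past 2-fold, at 2.50, 1.73 and −2.58. In control Marco was at 2.54 and Cd5l at −1.01. In the limma model the palmitate effect was 3.18 ± 0.28 (SE) for Marco and −2.53 ± 0.37 for Cd5l, each with an adjusted p of 0.503. No gene passed, the count being 0 of 15647 (0.00%), while 1533 genes (9.80%), Marco and Cd5l included, passed an unadjusted p under 0.05. With a prior variance that follows intensity, limma called 46 genes (0.294%), Marco and Cd5l among them.

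For the 5 genes measured on all arrays, the palmitate response in Drp1LiKO minus that in control was below 0. It was −1.09 for Cd5l, which fell further in Drp1LiKO, and −0.82 for Marco, which rose less. For Lyz2 it was −0.57, for Cd68 −0.32 and for Csf1r −0.17. The value for Csf1r is smaller in size than the scanner error of either of its responses, 0.20. With normexp, the response of Marco was 2.54 in control and 2.50 in Drp1LiKO, so the size of its gap depended on the background correction. Cd5l still fell further in Drp1LiKO with normexp, at −1.01 in control and −2.58 in Drp1LiKO. With 1 array a group the difference between the responses could not be tested.

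Further lists place the identity genes among other genes of macrophages and of the cells that share the sinusoid. The counts and medians that follow are over the genes measured on both arrays of a comparison. Of 20 other macrophage genes, 10 of 13 were at least 2-fold higher in untreated Drp1LiKO, with a median of 2.34, and 6 of 9 with palmitate, with a median of 2.10. None was lower by 2-fold, a count of 0 in both. Among them were Adgre1, a surface antigen of mouse macrophages (2.44 and 2.10), Ctss, a lysosomal protease (3.23 and 2.73), and Tyrobp, an adaptor of myeloid receptors (2.32 and 2.24). Cd14, a co-receptor for endotoxin, and Itgam, an integrin of myeloid cells, were short of 2-fold, at 0.22 and 0.02 untreated and 0.05 and −0.36 with palmitate. The probes of Ptprc, which encodes the common leukocyte antigen, disagreed. Its brightest probe differed by 0.17 and −0.02. Another probe was measured in Drp1LiKO only, at −2.97 untreated and −3.34 with palmitate, and yet another at −2.97 in untreated Drp1LiKO only. In the palmitate comparisons, 2 of 9 genes of the list were higher and 0 lower in control, and 1 of 17 higher and 4 lower in Drp1LiKO.

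The complement genes C1qa, C1qb and C1qc, which encode the chains of C1q, a product of macrophages, differed in the direction of Cd5l. Their genotype difference in untreated cultures was 2.41, 2.34 and 2.72. In Drp1LiKO, palmitate went with levels lower by 4.31-fold, 2.91-fold and 4.91-fold. In control with palmitate they were not well above background and at least 2.73-fold, 2.65-fold and 5.17-fold lower.

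The other genes enriched in Kupffer cells were less uniform. Of 12, 9 were measured on both untreated arrays, where 4 were at least 2-fold higher in Drp1LiKO (median 0.70), and 5 on both palmitate arrays, where 1 was higher (median −0.08). The count lower was 0 in both. Clec1b, a C-type lectin, was higher by 3.16 untreated, and Folr2, a folate receptor, by 2.45. With palmitate in Drp1LiKO, Clec1b was 3.72-fold and Folr2 3.18-fold lower. Genes that hepatocytes also express, such as the iron exporter Slc40a1 and the nuclear receptor Nr1h3, differed by −0.08 and −0.14 untreated and by −0.08 and −0.26 with palmitate. In the palmitate comparisons, 0 of 5 were higher and 0 lower in control, and 0 of 9 higher and 2 lower in Drp1LiKO.

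**Figure D3:**
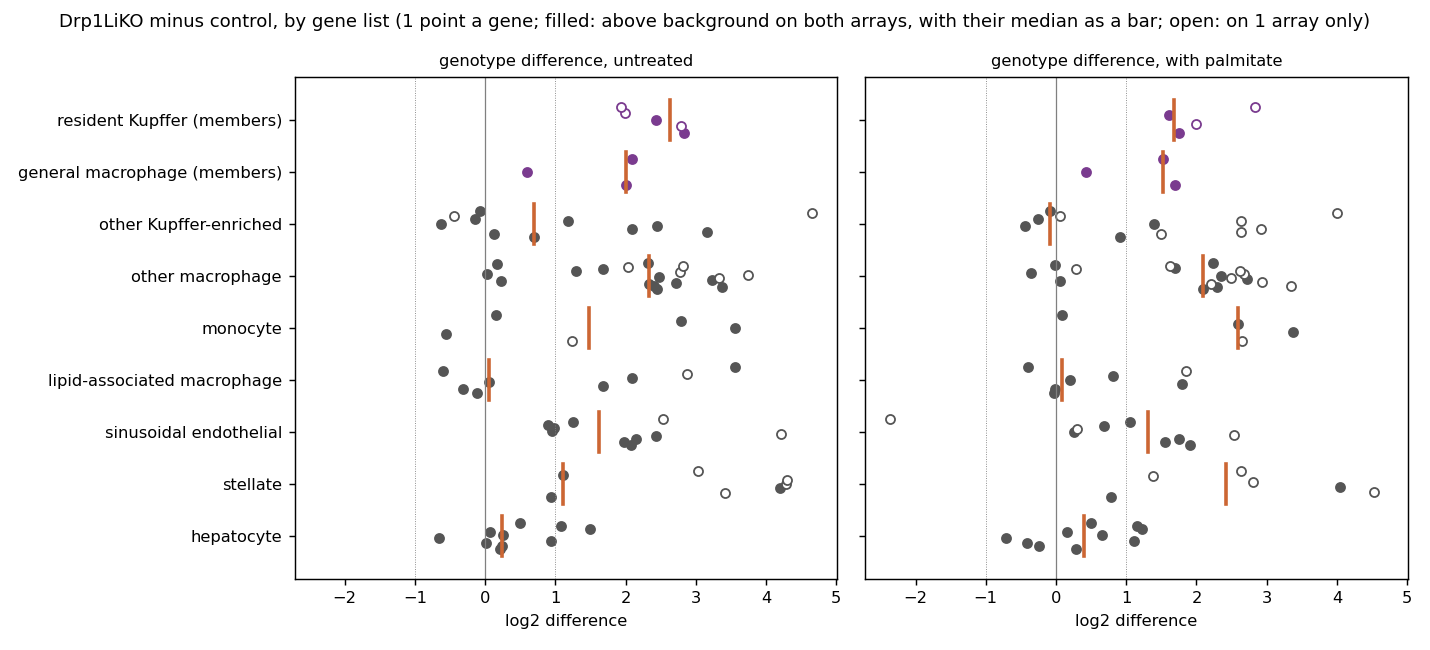
Drp1LiKO minus control in log2 units, 1 point a gene, by list, with filled points for genes measured on both arrays, their median as a bar, and open points for genes measured on 1 array only. The resident and general identity genes have medians of 2.64 and 2.01 untreated and 1.68 and 1.53 with palmitate, and the other macrophage genes have 2.34 and 2.10.

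Of the ligands of Csf1r, only Csf1 was past 2-fold by its brightest probe. Csf1, the macrophage colony-stimulating factor, read 4.04 in control and 2.19 in Drp1LiKO, and 3.77 and 2.09 with palmitate, a difference of −1.85 and −1.68. Its other probes differed by −1.13 and −1.10 untreated and −0.68 and −0.79 with palmitate. Il34 differed by 0.30 and 0.74, and its dimmer probe by 0.94 untreated. Csf1 was thus lower in Drp1LiKO, where its receptor differed by 0.59 and 0.42. Of the 11 growth factors and transcription factors of macrophages, 9 were measured on both untreated arrays, 1 higher (Irf8, at 1.29) and 1 lower (Csf1), and Spi1, which encodes PU.1, was measured on no array.

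Monocyte and lipid-associated genes gave the following values. Of 6 monocyte genes, 2 of 4 were at least 2-fold higher in untreated Drp1LiKO (Ly6c2 by 3.56 and Plac8 by 2.80) and 2 of 3 with palmitate. Cd300e had no measured control level and was at least 1.93-fold and 4.13-fold higher, and Ccr2, the chemokine receptor of monocytes, was measured on no array. Of 8 lipid-associated macrophage genes, 3 of 7 were higher untreated (median 0.06) and 1 of 6 with palmitate (median 0.09). Trem2, a lipid receptor, went from −3.95 in control to −0.39 in Drp1LiKO, 11.8-fold higher, and was at least 17.5-fold lower with palmitate in Drp1LiKO. Trem2 thus shared the direction of Cd5l and Vsig4.

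Markers of other cells also differed by genotype, and their part in these results was not tested. Of 10 endothelial genes, 5 of 8 were at least 2-fold higher in untreated Drp1LiKO (median 1.62) and 4 of 6 with palmitate (median 1.30). Tek, an endothelial receptor, was measured in control but not in Drp1LiKO with palmitate and was at least 2.02-fold lower there. Of 8 stellate cell genes, 2 of 3 were higher untreated (median 1.11) and 1 of 2 with palmitate. On either slide 4 further stellate genes were measured in Drp1LiKO only, and Des was measured on no array. The summed level of the list, in multiples of the 75th percentile, was 1.99 and 2.10 in control and 5.48 and 3.87 in Drp1LiKO for endothelial genes, untreated first. For stellate genes it was 0.882 and 1.09 in control and 9.21 and 12.3 in Drp1LiKO, most of it from Dcn, a matrix proteoglycan that read 2.94 and 3.49 in Drp1LiKO. For the 7 resident Kupffer genes it was 0.560 and 1.51 in control and 3.56 and 4.73 in Drp1LiKO, and for the 3 general genes 8.48 and 10.5 in control and 29.7 and 28.6 in Drp1LiKO. These 4 sums were thus higher on both Drp1LiKO arrays than on either control array, as was that of the other macrophage genes (25.7 and 30.7 in control, 38.6 and 36.6 in Drp1LiKO). The same held for monocyte genes (1.24 and 1.39, then 8.15 and 8.4) and dendritic cell genes (54.1 and 58.3, then 61.4 and 69.4). Hepatocyte genes also had this order (608.6 and 576.4, then 700.5 and 680.4). Lipid-associated macrophage, neutrophil, lymphocyte, cholangiocyte and erythroid genes did not. The sums of the other Kupffer-enriched genes (23.3 and 25.1, then 20.7 and 22.2) and of the growth factors and transcription factors (22.1 and 19.1, then 10.6 and 10.5) were lower in Drp1LiKO on each slide. Such sums follow the brightest genes, here Id3 (3.53 in untreated control, 2.90 in untreated Drp1LiKO) and Csf1 (4.04 and 2.19). They are not a trend of the lists. By gene, 6 of 9 Kupffer-enriched genes were higher by any amount in untreated Drp1LiKO and 2 of 5 with palmitate. For the growth factors and transcription factors the counts were 6 of 9 and 7 of 9.

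Hepatocyte genes bore out the labelled cell type, with all 10 measured on every array and summed levels of 608.6, 700.5, 576.4 and 680.4 in the order control, Drp1LiKO, control palmitate and Drp1LiKO palmitate. Their median genotype difference was 0.24 untreated and 0.39 with palmitate, with 2 and 3 genes past 2-fold higher. Few genes of other blood cells were measured. Of 7 neutrophil genes, 2 or 3 were measured on an array, with S100a9, Mpo, Ngp and Cxcr2 on none. Csf3r, at 5.09 to 5.35, and Elane, at 0.295 to 0.604, were measured on all 4 arrays. S100a8, a calcium-binding protein of neutrophils and monocytes, was measured on the palmitate arrays only, at −3.95 in control and −1.56 in Drp1LiKO, 5.25-fold higher. Its lower bound against the untreated array was 1.73-fold in control and 10.4-fold in Drp1LiKO. Of 8 lymphocyte genes, 1 to 3 were measured on an array, and those measured on none included Cd3g, Cd8a, Nkg7 and Ncr1. Cd3e was measured on all 4 arrays. The B cell genes Cd79a and Ms4a1 were measured in Drp1LiKO with palmitate only, at least 3.11-fold and 1.38-fold above control with palmitate. Of 6 dendritic cell genes, 1 or 2 were measured, with Flt3, Xcr1, Clec9a and Itgax on none. Siglech was measured on all 4 arrays, where the summed level of the list lay between 54.1 and 69.4.

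**Figure D4:**
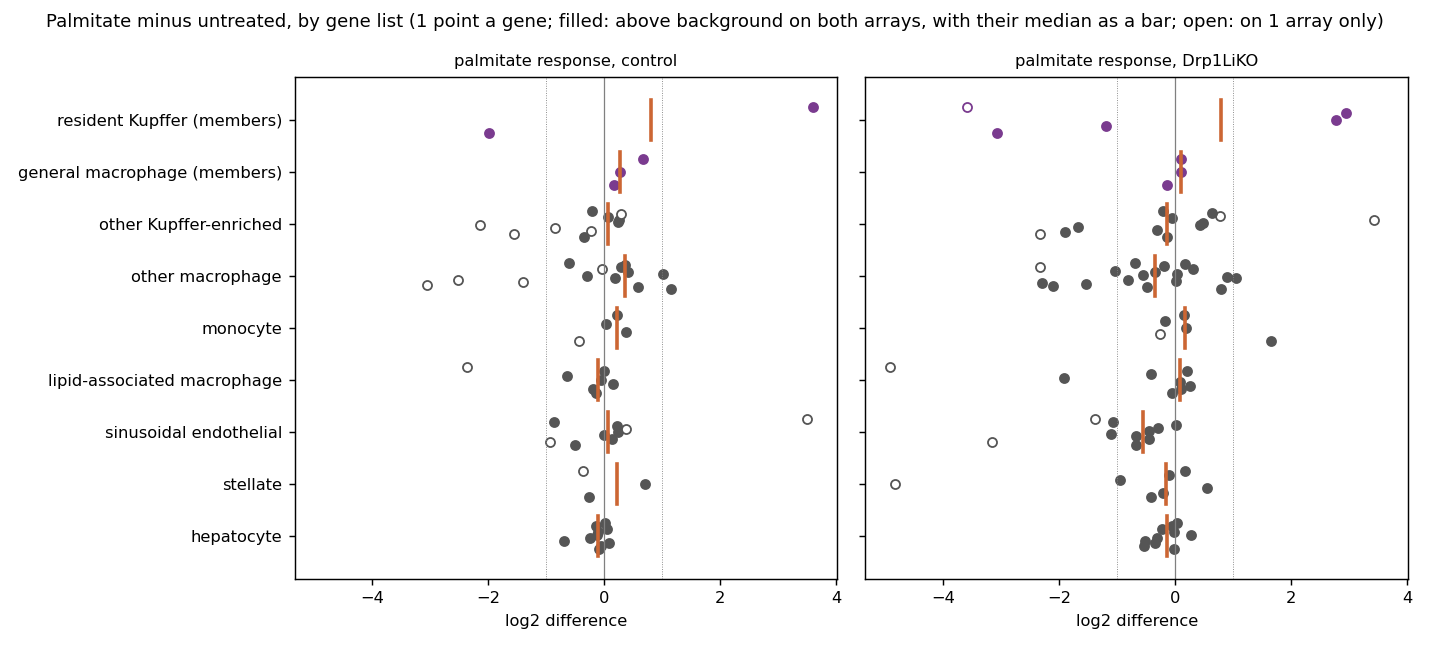
Palmitate minus untreated in log2 units in each genotype, 1 point a gene, by list, with filled points for genes measured on both arrays, their median as a bar, and open points for genes measured on 1 array only. The general macrophage genes lie between −0.15 and 0.67, whereas the resident genes reach from −1.99 to 3.59 in control and from −3.58 to 2.95 in Drp1LiKO.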

How the data were processed

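Gene expression was measured in cultured primary mouse hepatocytes on 4 one-colour arrays of 60-base probes, 1 for each group given by the sample labels. The intensity values of the deposited scanner tables are linear. The authors' scanner software (Agilent Feature Extraction 10.7.1.1 in the file headers, 9.5.1.1 in the submitters' processing notes) had subtracted the background from them. The deposited flags, used as other values, state which spots are well above background or outliers. A further deposited table holds quantile-normalized intensity values of the same signals, as its 4 columns share their sorted values, and was used as an alternative. RNA extraction is described with one kit in the labels and another in the methods.

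The processed signal was taken to log2, minus the 75th percentile of each array over non-control spots. Control spots and outlier spots were left out, repeat spots were averaged, and no spot was saturated. Each array's 75th percentile lay at an intensity of 485, 542, 424 and 468 in the order control, Drp1LiKO, control palmitate and Drp1LiKO palmitate. Precision is limited by having 1 array a group. Probes printed 10 times had a median SD between spots of 0.0337 to 0.0379 log2 units.

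The probe with the highest mean level among those well above background on at least 1 array stood for a gene. The text names the 10 identity genes, Dnm1l, and genes of further marker lists, those with the largest differences first. The identity genes and lists were chosen with earlier results of these data known. A 2-fold difference without a test was used for pairs of arrays. The additive model of genotype and palmitate used lmFit and eBayes of limma 3.58.1 (R 4.3.3). Its p-values were two-sided, adjusted by Benjamini-Hochberg over all genes and called under 0.05. The code was tested on simulated data. Tables were handled with Python 3.11.15 and pandas 2.3.3. Alternatives were normexp (offset 50), the deposited quantile table, other scalings, other filters on dim probes, a floor, the mean of a gene's probes, outlier spots kept and an intensity trend in limma. Accessions of 13 of the 15 probes matched a RefSeq transcript, all 13 of the same symbol. Promoters were taken from RefSeq (GRCm38.p6), and none is shown for Csf1r.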

Additional observations from a re-analysis of the deposited data

Results flagged for a closer look

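Cd68 had a palmitate difference of 0.17 in control and −0.15 in Drp1LiKO, opposite in sign, and was noted for that reason; with 1 array a group, the difference between the genotypes was not tested. Both values are smaller than the scanner software's error of 0.20. The other probes of Cd68 gave 0.10 and −0.18 for one and 0.17 and 0.12 for the other, so the opposite signs were seen with 2 of its 3 probes.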

How the results depend on the processing

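Of 196 recomputed differences of single genes, 175 stayed within the scanner error, 21 moved by more and 0 reversed; 15 of the 21 moved under normexp, 3 with dim values raised to the floor and 3 with the mean of a gene's probes. Counts of identity genes at 2-fold differed as follows. With both arrays required to measure the probe, 4 of 5 were higher in untreated Drp1LiKO. With no filter, 1 of 10 was lower in Drp1LiKO with palmitate, and in control 3 of 10 were higher and 2 lower with palmitate, the added genes all through probes not well above background. With normexp, 1 of 8 was lower with palmitate in Drp1LiKO. With the floor, Spic was at 0.61 in untreated cultures, Clec4f at 0.63 in the genotype difference with palmitate and Vsig4 at −1.40 with palmitate in Drp1LiKO. The mean of the probes gave 0.34 and 0.18 for Csf1r by genotype and 1.78 for Lyz2 with palmitate. The limma genotype term called 2045 genes and 3 identity genes with normexp, 2872 and 5 with genes measured on all arrays, and 4558 and 7 with the intensity trend, of which Clec4f and Spic have no measured control level. Under the trend the palmitate term called 46 genes and 2 identity genes, and the other alternatives called 0 genes for either term; at an unadjusted p under 0.05 limma gave at least 4151 for genotype and 1374 for palmitate. Where the cause is not the construction of the alternative, the cause was not tested. Scaling to the median shifted all genes by −0.18 and −0.16 in the genotype differences, and the other scalings by at most 0.02 in size. No paired analysis was possible because each group has 1 array and hence no replicate numbers to match, beyond the additive limma fit, which already compares the genotypes within each slide. Levels near background limit Clec4f, Vsig4, Spic, Timd4 and Cd163.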
